A study of Mus musculus with 32 samples.

Results

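To find which transcripts of brown fat went with the level of Ucp1 once time of day was set aside, the mice of each time point were compared with one another. The 4 mice killed at a time point were ranked on their Ucp1 level in CPM (counts scaled to the same library total), and the groups were chosen by those measured values alone: the 2 mice with more Ucp1 and the 2 mice with less. Across 8 time points this gave 16 mice with higher and 16 mice with lower Ucp1, which together are all 32 libraries of the series. The labels give no such groups, so Ucp1 is described and never tested between them. Its values were only screened for outliers within time points. A p-value of any other gene says only whether its level went with Ucp1 among mice of the same time point.

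Brown adipocytes burn fatty acids to make heat. UCP1, a carrier in the inner mitochondrial membrane, lets protons return to the matrix without driving ATP synthesis, so that the energy of respiration is released as heat. Noradrenaline from sympathetic nerves acts through beta-adrenergic receptors and cyclic AMP to release fatty acids from lipid droplets and to raise transcription of Ucp1 and of other thermogenic genes.

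All mice were male C57BL/6J, 10 weeks old by their label, fed chow, not fasted, and housed in a cycle of light and dark. Interscapular brown adipose tissue was taken every 3 h from ZT0 (lights on) to ZT21, from 4 mice at each time, and total RNA of each mouse gave 1 stranded library whose reads were counted per gene. ZT0 to ZT9 is called the light phase below and ZT12 to ZT21 the dark phase. No mouse was treated or carried a transgene, and each mouse was sampled once, so that no mouse was followed over time.

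Library totals ran from 16300770 to 18254659 counts with a median of 17418661, and 15504 genes other than Ucp1 passed the filter on low counts. Ucp1 was abundant in every library, with 961 to 4213 CPM. The summed level of 10 other brown adipocyte markers lay between 2610 and 3710 CPM, of which Cidea alone had a median of 1840 CPM. The tissue also held transcripts of other cells, and the summed markers of skeletal muscle ranged from 54.8 to 8530 CPM, with 8 libraries above 5 times the median. Libraries were sequenced in lane 2 (ZT0 to ZT6), lane 3 (ZT9 to ZT15) and lane 4 (ZT18 and ZT21), so a comparison of mice of the same time point never crossed a lane.

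Mice of the same time point differed in Ucp1 by amounts that varied with the time of day. At ZT12, where the groups lay furthest apart, the mice with higher Ucp1 had 3837 and 3173 CPM and those with lower Ucp1 had 1880 and 1461 CPM, a ratio of means of 2.10. At ZT6 the values were 3798 and 2741 against 2043 and 1663 CPM (ratio 1.76), and at ZT9 they were 4213 and 2841 against 2559 and 2193 CPM (ratio 1.48). Later in the dark phase both groups had lower levels. ZT21 had 2245 and 1858 against 1632 and 1183 CPM (ratio 1.46), and ZT18 had 1757 and 1277 against 1155 and 961 CPM (ratio 1.43). ZT15 had 2022 and 1965 against 1913 and 1235 CPM (ratio 1.27), where replicate 1 stood below the other mice. At ZT0 the values were 2876 and 2704 against 2374 and 2067 CPM (ratio 1.26), and at ZT3 they were 2277 and 2198 against 2190 and 1979 CPM (ratio 1.07).

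The line between the groups was therefore thin at 2 time points. At ZT3 the last mouse inside the higher group and the first outside it differed by 8 CPM, and at ZT15 by 52 CPM. Over all time points the higher group spanned 1277 to 4213 CPM with a median of 2490, and the lower group 961 to 2559 CPM with a median of 1897, so the groups overlapped once time of day was ignored. Averaged over time points on the log2 scale, the ratio was 1.45. Ranking on CPM scaled by TMM (trimmed mean of M values, which corrects for composition) moved 2 libraries to the other group, and taking Ucp1 out of the totals moved 0.

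**Figure D1:**
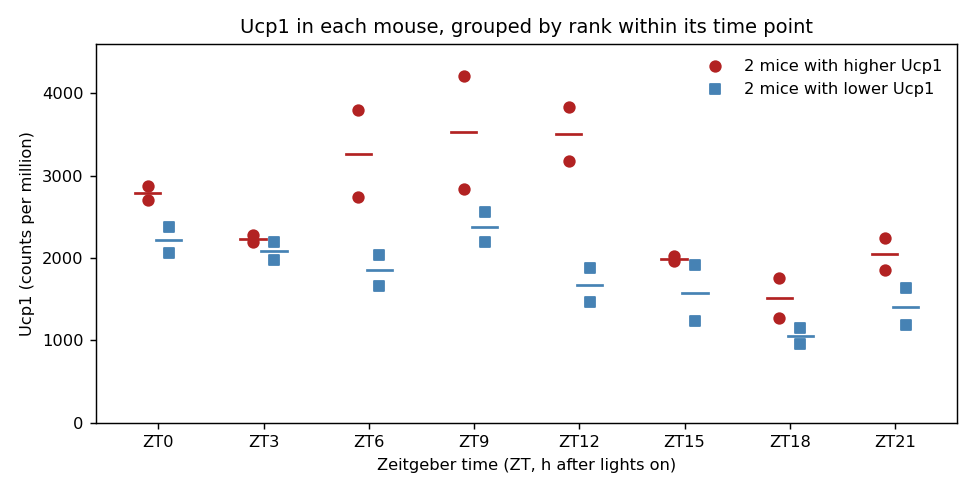
Ucp1 (CPM) in each of the 32 mice against zeitgeber time. Circles are the 2 mice with higher and squares the 2 mice with lower Ucp1 at each time, and short lines are the means of each pair; the pairs lie far apart at ZT12 and almost touch at ZT3.

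Compared as 2 groups, no other gene passed the test. By edgeR's quasi-likelihood test with time point as a block, 0 of 15504 genes (0%) had a Benjamini-Hochberg adjusted p under 0.05, and the lowest adjusted p was 0.117. At an unadjusted p under 0.05, 1008 genes (6.5%) were higher and 1178 genes (7.6%) were lower in the mice with more Ucp1. With scaling to library size alone these numbers were 474 and 1752. DESeq2's Wald test, run on the same groups, called 60 genes, 36 higher and 24 lower, and 2143 genes at an unadjusted p under 0.05. With no filter on low counts edgeR called 901 genes, 885 of them among the 15504. With the mice ranked on TMM-scaled CPM it called 6. Leaving out ZT15 replicate 3, the mouse just outside the higher group with 1913 CPM of Ucp1, gave 95 calls by edgeR, and leaving out ZT9 replicate 4 or ZT15 replicate 1 gave 1 call each.

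Trip11, which encodes a Golgi tether protein and was picked out after its values were seen, had the lowest p of the split. Its level ran from 48.5 to 74 CPM with a median of 63.5 in the mice with higher Ucp1, and from 45.7 to 65.4 CPM with a median of 55.1 in the others. At all 8 time points both mice with more Ucp1 lay above both mice with less, which 1 of the genes tested (0.00645%) did in that direction. The difference was 0.18 ± 0.03 on the log2 scale (SE, 16 against 16 mice), with an adjusted p of 0.117 by edgeR.

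The split throws away how far apart the mice were, so the same model was also fitted with log2 Ucp1 as a graded value in place of the groups. The slope is then the log2 change of a gene per doubling of Ucp1 among mice of the same time point. In this graded fit 882 genes passed an adjusted p of 0.05 by edgeR: 506 rose with Ucp1 (3.26% of those tested) and 376 fell (2.43%), and the lowest adjusted p was 0.000105. All 882 had the same sign in the split, and 744 of them had an unadjusted p under 0.05 there, as both fits use the same mice. With scaling to library size alone 214 rose and 532 fell. Counts of rising or falling genes below are from the graded fit unless the split is named, and a log2 difference is the mice with higher minus those with lower Ucp1.

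The count of 882 depended on single mice. Leaving out ZT15 replicate 1 left 241 genes, and leaving out ZT9 replicate 2 left 346, ZT12 replicate 1 left 387, ZT9 replicate 3 left 389 and ZT21 replicate 3 left 554. Leaving out ZT9 replicate 1 gave 1440. Without the 8 libraries of ZT3 and ZT15, where the groups almost met, 81 genes passed, and among the 24 libraries left without those high in muscle markers 60 passed. Within lane 2, 3 or 4 alone the counts were 0, 1 and 0. In all, 143 genes passed an adjusted p of 0.01.

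The summed markers of macrophages, fibroblasts and lymphocytes lay lower on average in the mice with more Ucp1. In bulk tissue, fewer cells of a type and less RNA per cell cannot be told apart. The 8 macrophage markers summed to 59.9 to 176 CPM (median 87.8) in the mice with higher Ucp1 and to 56.6 to 367 CPM (median 124) in the others. Their log2 sum differed by -0.45 and was on average higher with higher Ucp1 at 0 of 8 time points (permutation test within time points, two-sided, p = 0.00426, adjusted p = 0.0627 over 15 library values). The 7 lymphoid markers summed to low medians of 10.9 CPM with higher and 13.3 CPM with lower Ucp1. Of these markers Ighm alone had a median of 8.71 CPM over all libraries. The log2 lymphoid sum differed by -0.32 and was lower at every time point (permutation p = 0.00836, adjusted p = 0.0627). Taken singly, 3 of the 7 had a difference above 0, and the median over the 7 was 0.38 at ZT6, 0.28 at ZT12 and 0.01 at ZT15. The sum of the 8 fibroblast markers differed by -0.33 (permutation p = 0.0156, adjusted p = 0.0778). None of the 15 library values passed an adjusted p of 0.05 as the mice were ranked. Ranked on TMM-scaled CPM, which moves 2 libraries, the adjusted p-values of these permutation tests were 0.0096, 0.0124 and 0.014. The number of genes with a count had medians of 20494 and 20674 in the mice with higher and lower Ucp1, a mean difference of -155 (permutation p = 0.0822, adjusted p = 0.23). Under the TMM ranking it was -247 and lower at every time point (permutation test, adjusted p = 0.0154), and the TMM factor differed by -0.0323 (adjusted p = 0.0579). Their part in the results was not tested.

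Skeletal muscle markers had medians of 264 and 1900 CPM in the mice with higher and lower Ucp1, but the ranges of 54.8 to 8380 and 54.8 to 8530 CPM were almost the same, and the mean log2 difference of -0.79 had a permutation p of 0.431. White adipocyte markers and markers of Schwann cells and nerve both differed by -0.21 on the log2 scale, and endothelial, blood and mural markers by -0.06, -0.03 and -0.09. Brown adipocyte markers without Ucp1 differed by 0.08 and were higher at 6 of 8 time points (permutation p = 0.0538, adjusted p = 0.202). The share of counts from mitochondrially encoded genes had medians of 23.1% and 22.9%. Of the white adipocyte markers Hoxc9 and Tcf21 were at 0 in most libraries, as was Th of the nerve list.

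**Figure D2:**
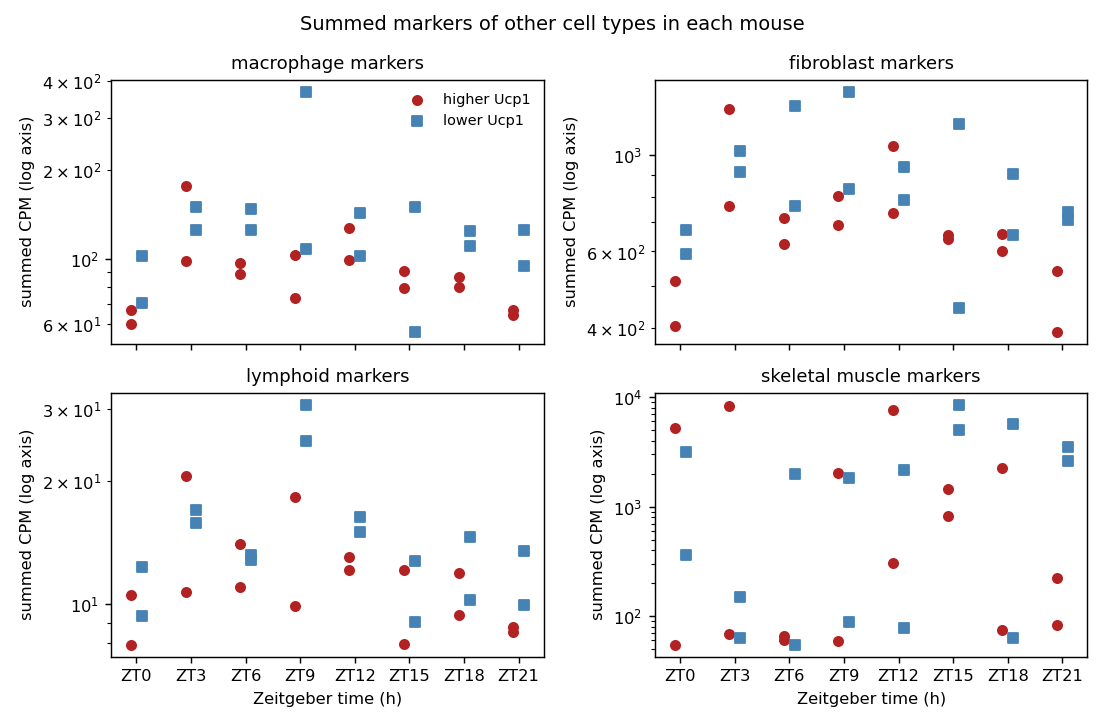
Summed level (CPM, log axis) of the markers of 4 other cell types in each mouse against zeitgeber time. Circles are mice with higher and squares mice with lower Ucp1; at ZT9 replicate 3, a mouse with lower Ucp1, the macrophage markers reached 367, and muscle markers span 54.8 to 8530 over the 32 mice.

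Ucp1 and these markers varied together. Among deviations of the 32 mice from the mean of their time point, log2 Ucp1 and the macrophage marker sum had a Pearson's r of -0.617, log2 Ucp1 and the fibroblast marker sum -0.535, and the 2 marker sums 0.843, all from the same libraries. With the log2 macrophage sum as a covariate in the graded fit, 12 genes passed, 11 rising and 1 falling, and with the fibroblast sum 25 passed, 22 rising and 3 falling. Of the 882 genes, 876 and 882 kept their sign in these fits, as did 881 without the libraries high in muscle markers. With the muscle sum 817 passed, and with the mitochondrially encoded share 1509. The covariates were chosen after the data were seen. As Ucp1 and the macrophage sum share much of their variation, the covariate fit cannot say which of them a gene goes with.

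The genes whose pattern was most like that of Ucp1 were taken by Pearson's r of log2 deviations over the 32 mice, among genes of at least 10 CPM. The 5 highest were Oplah (0.887), Agpat3 (0.871), Mlycd (0.85), Idh3a (0.847) and Sgta (0.835). The 5 lowest were Vwa5a (-0.832), Rexo5 (-0.791), Ahnak (-0.77), Cpeb1 (-0.767) and Zc3h7a (-0.75). These values are a description, and the mice share library and depth with Ucp1.

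Oplah, which encodes 5-oxoprolinase of the glutathione cycle, lies on the minus strand of chromosome 15 (GRCm38, 76296601 to 76328015). Its level was 202 to 388 CPM (median 244) with higher Ucp1 and 179 to 304 CPM (median 226) with lower Ucp1, and was higher with more Ucp1 at 8 of 8 time points. Per doubling of Ucp1 it rose by 0.36 ± 0.04 (log2, SE; edgeR adjusted p = 0.000105), and it was also among the 12 genes called beside the macrophage sum (slope 0.40, adjusted p = 0.00101). Agpat3, an acyltransferase that makes phospholipid precursors, ran from 405 to 630 CPM (median 519) against 327 to 547 CPM (median 461), a slope of 0.31 ± 0.04. Mlycd, malonyl-CoA decarboxylase, removes the malonyl-CoA that restrains fatty acid entry into mitochondria. It ran from 65.5 to 105 CPM (median 78) against 54.9 to 81.1 CPM (median 70.4), with a slope of 0.42 ± 0.05. The ranges of both groups overlapped for each of these genes, and both Agpat3 and Mlycd were higher with higher Ucp1 at 8 of 8 time points.

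Among the genes that fell, Ahnak, a very large scaffold protein, ran from 428 to 633 CPM (median 520) with higher and 489 to 764 CPM (median 599) with lower Ucp1. It was lower with more Ucp1 at 8 of 8 time points, with a log2 difference of -0.24 ± 0.05 and a slope of -0.36 ± 0.06 (edgeR adjusted p = 0.00209). Rexo5, an RNA exonuclease, had medians of 9.25 and 11.1 CPM, was lower at 8 of 8 time points and had a slope of -0.43 ± 0.07. Beside the macrophage sum Ahnak had a slope of -0.29 (adjusted p = 0.224) and Rexo5 one of -0.42 (adjusted p = 0.114).

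**Figure D3:**
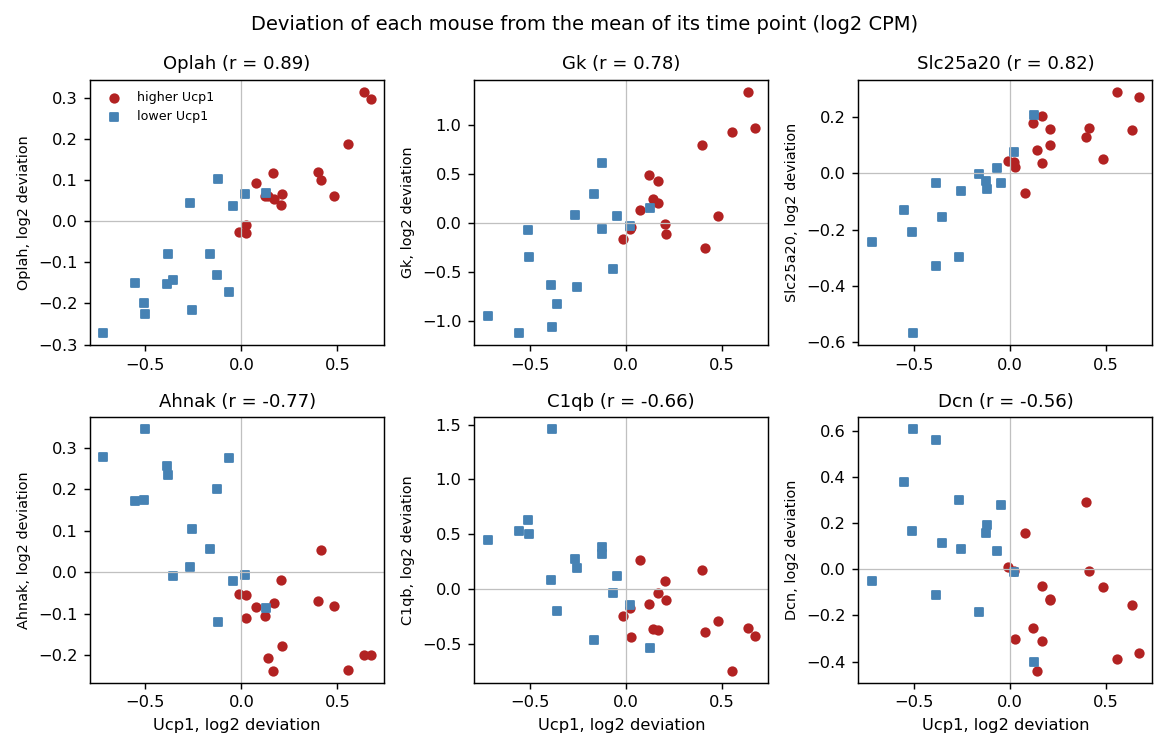
Log2 deviation of 6 genes (vertical) from the mean of their time point against that of Ucp1 (horizontal), 1 point per mouse, circles for higher and squares for lower Ucp1. Oplah, Gk and Slc25a20 lie along a rising band, and Ahnak, C1qb and Dcn along a falling and wider one, with 1 mouse far above the others for C1qb.

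Of the thermogenic list, 7 of 20 tested genes rose with Ucp1 and 0 fell, where 3.26% of all tested genes rose and 2.43% fell. The median slope was 0.23, against -0.02 over all tested genes. The 7 rising genes became 5 without ZT15 replicate 1, 3 without the libraries high in muscle markers, 2 without ZT3 and ZT15, and 1 beside the macrophage sum. Gk, glycerol kinase, which lets brown adipocytes reuse glycerol for triglyceride synthesis, had levels of 32.5 to 240 CPM (median 62.9) with higher and 21.9 to 155 CPM (median 48.3) with lower Ucp1. Its log2 difference was largest at ZT12 (1.78) and ZT6 (1.77) and was 0.01 at ZT18 and 0 at ZT21. It rose by 1.29 ± 0.20 per doubling, that is 2.44-fold (edgeR adjusted p = 0.00118), and was also called beside the macrophage sum (slope 1.32, adjusted p = 0.049).

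Dio2, the deiodinase that makes active thyroid hormone within the cell and is induced by cyclic AMP, ran from 12.4 to 108 CPM (median 30.9) against 7.49 to 96.9 CPM (median 19). It was higher with more Ucp1 at 7 of 8 time points and lower at ZT3 (-0.56). Its slope was 1.49 ± 0.40 (edgeR adjusted p = 0.0312), and 0.0582 without ZT15 replicate 1. Cox8b, a subunit of cytochrome c oxidase, was higher at 8 of 8 time points, with 619 to 865 CPM (median 747) against 544 to 829 CPM (median 661) and a slope of 0.28 ± 0.05. Otop1, a proton channel, Clstn3, of which brown fat makes a short form that acts at lipid droplets, Cox7a1 and Letmd1 rose with slopes of 0.60 ± 0.14, 0.41 ± 0.08, 0.26 ± 0.05 and 0.30 ± 0.08. Letmd1 lost its call in 8 of the 32 fits that left out 1 mouse (slope 0.23, edgeR adjusted p = 0.11 without ZT15 replicate 1), and Cox7a1 lost it with scaling to library size alone (adjusted p = 0.0696). Cidea and Ppargc1a, a lipid droplet protein and the coactivator of mitochondrial genes, had slopes of 0.16 ± 0.06 and 0.42 ± 0.19 that did not pass (edgeR adjusted p = 0.0843 and 0.175).

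In the beta-adrenergic and cyclic AMP pathway, 3 of 16 tested genes rose and 1 fell (3.26% and 2.43% of all tested genes), with a median slope of 0.09. These became 2 and 0 without ZT15 replicate 1 or without ZT9 replicate 2, 1 and 0 without the libraries high in muscle markers (median slope 0.15), and 0 and 0 beside the macrophage sum (median slope 0.11). Adrb3, the main beta receptor of adipocytes, had a slope of 0 ± 0.20 and medians of 161 and 185 CPM. Gnas, the stimulatory G protein alpha subunit, ran from 2450 to 3410 CPM (median 2930) against 1710 to 3040 CPM (median 2600) and rose by 0.39 ± 0.07 (edgeR adjusted p = 0.00394). It was higher at 8 of 8 time points, although the log2 difference at ZT18 rounded to 0, and DESeq2 called it in the split (adjusted p = 0.0452). Adcy3, the adenylyl cyclase induced in brown fat by cold, ran from 72.4 to 260 CPM (median 107) against 63.4 to 172 CPM (median 90.1) and rose by 0.71 ± 0.11 per doubling. Prkar2b, a regulatory subunit of protein kinase A, had a slope of 0.27 ± 0.08 (edgeR adjusted p = 0.0437) and lost its call in 20 of the 32 fits that left out 1 mouse, with an adjusted p of 0.131 without ZT15 replicate 1. Creb1, the transcription factor that the kinase activates, fell by 0.19 ± 0.05 per doubling while its medians were 33.5 and 33.8 CPM (edgeR adjusted p = 0.0422), and lost its call in 11 of those 32 fits, with an adjusted p of 0.0779 without ZT15 replicate 1.

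Of 19 transcription factors of brown fat, 3 rose, against 3.26% of all tested genes: Esrra (0.22 ± 0.05), the estrogen-related receptor that drives oxidative genes, Tfam (0.21 ± 0.05), a transcription and packaging factor of mitochondrial DNA, and Rxrg (0.34 ± 0.10), a retinoid X receptor. Pparg and Ppara had slopes of 0.09 ± 0.12 and -0.36 ± 0.24 and did not pass. The 3 became 1 (Esrra) without ZT15 replicate 1, where Tfam and Rxrg had adjusted p-values of 0.0565 and 0.108 by edgeR, 1 without ZT9 replicate 2, and 0 rising and 1 falling with scaling to library size alone. Beside the macrophage sum Esrra, Tfam and Rxrg had slopes of 0.14, 0.13 and 0.34 and were not called (edgeR adjusted p = 0.535, 0.615 and 0.436).

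Nuclear genes of the respiratory chain had small slopes. All 37 tested genes of complex I and all 27 of complexes II to IV had a difference above 0 in the split, where 0 passed the test, as had 7385 of all 15504 genes. In the graded fit 8 and 7 rose, against 3.26% of all tested genes, and 0 fell, with median slopes of 0.14 and 0.17. Ndufv3 of complex I had medians of 274 and 255 CPM and a slope of 0.23 ± 0.05 (edgeR adjusted p = 0.00671). Uqcr11 of complex III, with medians of 355 and 326 CPM, had a slope of 0.21 ± 0.05, and Cox4i1 of complex IV, with 954 and 910 CPM, one of 0.14 ± 0.04. ATP synthase had 2 rising genes of 16. The 8, 7 and 2 rising genes became 1, 2 and 0 without ZT15 replicate 1 or without ZT9 replicate 2, 1, 1 and 0 with scaling to library size alone, 0, 1 and 0 without the libraries high in muscle markers, and 19, 17 and 6 beside the mitochondrially encoded share. The 15 mitochondrially encoded genes had a median slope of 0.16 and 0 calls. Under scaling to library size alone, where the median of all genes was -0.07, the medians of complex I and of complexes II to IV were 0.09 and 0.11, and beside the macrophage sum 0.06 and 0.06 with 0 calls.

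The mitochondrial ribosome, which translates the mitochondrially encoded proteins, had 23 rising of 77 tested genes, against 3.26% of all, and 0 falling, with a median slope of 0.15. The 23 became 6 without ZT15 replicate 1, 7 without ZT9 replicate 2, 6 with scaling to library size alone and 39 beside the mitochondrially encoded share. It became 0 beside the macrophage or the fibroblast sum, with median slopes of 0.07 and 0.08, and 0 among the 24 libraries left without those high in muscle markers, with a median slope of 0.13. Mrpl15, with medians of 67.5 and 61.8 CPM, rose by 0.27 ± 0.05 (edgeR adjusted p = 0.00286), and Mrps18a by 0.30 ± 0.07; both were higher at 8 of 8 time points. The cytosolic ribosome had 1 rising gene of 80 (Rpl19) and a median slope of 0.02. In the tricarboxylic acid cycle 3 of 19 genes rose, against 3.26% of all. They became 1 without the libraries high in muscle markers or without ZT3 and ZT15, and 0 beside the macrophage sum, with median slopes of 0.09, 0.09 and 0.04 against 0.13. Idh3a, the catalytic subunit of NAD-dependent isocitrate dehydrogenase, ran from 1160 to 1470 CPM (median 1320) against 1040 to 1290 CPM (median 1170) and rose by 0.26 ± 0.04, and Sucla2 rose by 0.25 ± 0.05. Sdhd rose by 0.19 ± 0.06 (edgeR adjusted p = 0.0493), with an adjusted p of 0.15 without ZT15 replicate 1 and 0.0795 with scaling to library size alone. Citrate synthase (Cs) did not pass, with a slope of 0.08 ± 0.06.

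Of 26 genes of fatty acid uptake and oxidation 10 rose, against 3.26% of all tested genes, and 0 fell, with a median slope of 0.20. The 10 became 6 without ZT15 replicate 1, 7 with scaling to library size alone, 1 without the libraries high in muscle markers (median slope 0.17) and 0 beside the macrophage sum (median slope 0.10). Slc25a20, the carrier that brings acylcarnitines into the mitochondrial matrix, ran from 323 to 550 CPM (median 442) with higher and 278 to 476 CPM (median 374) with lower Ucp1. Both mice with more Ucp1 lay above both with less at 6 of 8 time points, and ZT3 had a log2 difference of -0.05. It rose by 0.42 ± 0.06 per doubling (edgeR adjusted p = 0.000819), with 0.28 (adjusted p = 0.13) beside the macrophage sum and 0.32 (adjusted p = 0.0334) beside the fibroblast sum. Etfdh, which passes electrons from fatty acid oxidation to ubiquinone, rose by 0.34 ± 0.07, and Acsl1, which activates long-chain fatty acids, by 0.40 ± 0.09. The dehydrogenases Acads and Acadm rose by 0.21 ± 0.04 and 0.28 ± 0.07. Lpl, the lipase that frees fatty acids from circulating lipoproteins, ran with medians of 3540 and 3080 CPM and rose by 0.27 ± 0.07 (edgeR adjusted p = 0.0269). It was not called with scaling to library size alone (slope 0.21, adjusted p = 0.0774) or beside the macrophage sum (slope 0.28, adjusted p = 0.361), nor was Acadm without ZT15 replicate 1 (slope 0.23, adjusted p = 0.0611).

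Of 14 lipid droplet and lipolysis genes 4 rose and 0 fell (3.26% and 2.43% of all tested genes). The 4 became 3 without ZT15 replicate 1, 1 without the libraries high in muscle markers and 0 beside the macrophage sum, with median slopes of 0.13 and 0.06 in these last fits against 0.13. Cidec, which fuses lipid droplets, was higher at 8 of 8 time points, with 514 to 1190 CPM (median 711) against 438 to 1050 CPM (median 564) and a slope of 0.36 ± 0.07 (edgeR adjusted p = 0.00591). Mgll, monoacylglycerol lipase, and Plin5, which tethers droplets to mitochondria, rose by 0.41 ± 0.08 and 0.29 ± 0.06. Pnpla2 and Lipe, the first lipases of the pathway, had slopes of 0.08 ± 0.04 and 0.07 ± 0.09 and did not pass.

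Other pathways of fuel use and the genes of rhythm and stress had few or no calls, where 3.26% of all tested genes rose and 2.43% fell. In lists this short, 0 calls is near those shares. De novo lipogenesis had 0 calls among 18 tested genes. The median log2 difference of this list moved widely between time points, with 0.82 at ZT15, 0.60 at ZT0 and -1.03 at ZT6. That of the early response list ran from -1.18 at ZT0 to 1.06 at ZT9. Fasn, fatty acid synthase, with medians of 20900 and 20500 CPM, had a slope of 0.24 ± 0.38. Of 21 genes of glucose uptake and glycolysis Ldhb rose (0.14 ± 0.04), which is 4.76% of the list against 3.26% of all tested genes. Its edgeR adjusted p of 0.0307 became 0.0815 without ZT15 replicate 1 and 0.208 with scaling to library size alone. Slc2a4, the insulin-regulated glucose transporter, had a slope of 0 ± 0.15. The 19 core clock genes, 12 fasting and glucocorticoid responsive genes, 14 heat shock genes, 12 genes of the integrated stress response and 12 early response genes had 0 calls. Clock itself was at a log2 difference of 0.14 ± 0.04 in the split (unadjusted p = 0.0014 by edgeR) and a slope of 0.16 ± 0.06 (adjusted p = 0.109). Most of the clock list lay on the other side, with 5 of 19 differences above 0. Its median log2 difference was -0.045 and its median slope -0.052. Of 8 genes of creatine and calcium cycling 1 rose, against 3.26% of all tested genes. The median slope of this list was -0.25, and 2 of its 8 slopes lay above 0. The rising gene was Alpl, with a slope of 0.32 ± 0.08 (edgeR adjusted p = 0.0278, and 0.0578 without ZT15 replicate 1). Neither Alpl nor Ldhb was called without ZT9 replicate 2.

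**Figure D4:**
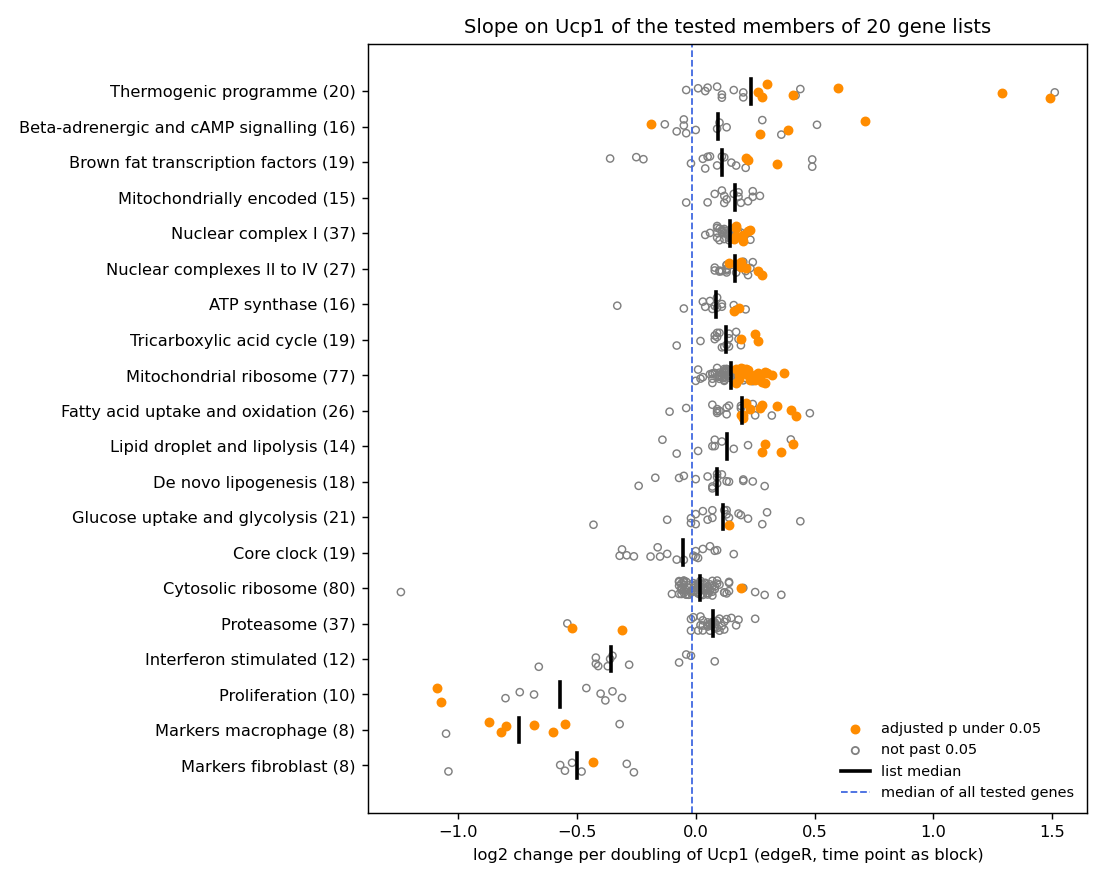
Slope per doubling of Ucp1 (log2) of each tested member of 20 gene lists, with the number tested in brackets. Filled points have an adjusted p under 0.05, black bars are list medians, and the dashed line is the median of all tested genes (-0.02); respiratory chain and mitochondrial ribosome members sit in a narrow band to its right, macrophage and fibroblast markers to its left.

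Promoters of the genes that rose were searched for 4 short motifs on both strands, in windows of 300 bases from RefSeq (GRCm38.p6) that end 50 bases after the start of transcription. Of the 505 symbols that rose, 392 had a window, as had 282 of the 375 that fell and 10909 of all 15502 tested. The ETS element CCGGAAG was in 22.9% of the windows of rising genes, 9.52% of those of falling genes and 16.3% of all. The cyclic AMP response element TGACGTCA was in 3.07%, 1.59% and 2.87%, the TATA box TATAAA in 6.54%, 8.20% and 7.57%, and the estrogen-related receptor element TNAAGGTCA in 1.23%, 0.794% and 0.796%. These shares are a description, and a match is not a bound site.

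The 250 bases before the start are shown for Ucp1, on which the mice were ranked, and for Mlycd and Slc25a20, which rose and hold the ETS element. They are also shown for Dio2, which holds the cyclic AMP response element and the TATA box. Capitals mark the motifs named above, and all are written 5′ to 3′ on the strand of the gene. Mlycd holds CCGGAAG at 26 and 13 bases before its start, Slc25a20 holds it at 79, and Dio2 holds TGACGTCA at 95 and TATAAA at 30. The 250 bases shown for Ucp1 hold none of the 4.
Ucp1, chr8:83290098-83290347, plus strand: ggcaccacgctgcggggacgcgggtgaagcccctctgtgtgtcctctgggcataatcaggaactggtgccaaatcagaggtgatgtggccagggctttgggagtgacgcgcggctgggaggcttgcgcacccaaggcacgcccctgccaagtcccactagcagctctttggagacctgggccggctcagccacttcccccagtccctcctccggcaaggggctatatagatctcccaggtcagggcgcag
Mlycd, chr8:119394644-119394893, plus strand: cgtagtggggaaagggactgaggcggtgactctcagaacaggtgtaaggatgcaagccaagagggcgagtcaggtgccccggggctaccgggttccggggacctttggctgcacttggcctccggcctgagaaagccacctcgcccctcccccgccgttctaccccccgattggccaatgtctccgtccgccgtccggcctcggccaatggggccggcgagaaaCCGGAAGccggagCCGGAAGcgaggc
Slc25a20, chr9:108661886-108662135, plus strand: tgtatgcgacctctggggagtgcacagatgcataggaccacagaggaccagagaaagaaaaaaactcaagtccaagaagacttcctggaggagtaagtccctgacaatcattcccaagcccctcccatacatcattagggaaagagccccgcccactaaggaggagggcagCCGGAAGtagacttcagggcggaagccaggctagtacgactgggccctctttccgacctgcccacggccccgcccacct
Dio2, chr12:90739039-90739288, minus strand: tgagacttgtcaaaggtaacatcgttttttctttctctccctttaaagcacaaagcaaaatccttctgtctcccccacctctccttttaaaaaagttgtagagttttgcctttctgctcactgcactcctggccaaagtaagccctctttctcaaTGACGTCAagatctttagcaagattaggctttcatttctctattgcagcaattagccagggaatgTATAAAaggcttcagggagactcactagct

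On the falling side, 6 of 8 macrophage markers fell with Ucp1 (C1qa, C1qb, C1qc, Lyz2, Mrc1 and Csf1r), against 2.43% of all tested genes, with a median slope of -0.74 over the 8. C1qb, a chain of complement C1q, ran from 7.23 to 17 CPM (median 9.2) with higher and 7.17 to 40.3 CPM (median 13.1) with lower Ucp1, and fell by 0.87 ± 0.19 per doubling (edgeR adjusted p = 0.010, and 0.0291 without ZT15 replicate 1). Lyz2, lysozyme of myeloid cells, which shares sequence with Lyz1, was lower with more Ucp1 at 8 of 8 time points, with medians of 30.2 and 46.4 CPM, and fell by 0.80 ± 0.19. Its log2 difference ran from -0.07 at ZT12 to -1.22 at ZT9. Adgre1 and Cd68 had slopes of -1.05 ± 0.42 and -0.32 ± 0.18 and did not pass. Without ZT15 replicate 1 only C1qb of the 6 passed, and 0 passed without the libraries high in muscle markers or without ZT3 and ZT15, where the median slopes were -0.72 and -0.70.

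Of the 8 fibroblast markers 1 fell, against 2.43% of all tested genes: Dcn, a proteoglycan of collagen fibres. It was lower with more Ucp1 at 8 of 8 time points, with 93.6 to 198 CPM (median 134) against 118 to 244 CPM (median 157) and a slope of -0.43 ± 0.12 (edgeR adjusted p = 0.0386, and 0.126 without ZT15 replicate 1). The others had slopes below 0 and did not pass. Beside the macrophage sum Dcn had a slope of -0.05 (edgeR adjusted p = 0.957), and the median slope of the list was -0.04 against -0.50 without that covariate. Pi16, a marker of adventitial fibroblasts, had medians of 11.7 and 25.1 CPM and a slope of -1.04 ± 0.36 (adjusted p = 0.083), and Col3a1, a collagen, had 264 and 318 CPM and -0.48 ± 0.15 (adjusted p = 0.0531).

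Immune and dividing cells express further genes of this side. The interferon list had no call in the graded fit, but 6 of 12 had an unadjusted p under 0.05 in the split, all lower with higher Ucp1, against 7.6% of all genes. Oasl2 and Ifit2 were lower by 0.32 ± 0.09 and 0.28 ± 0.09 on the log2 scale. Of 37 proteasome genes 2 fell, against 2.43% of all tested genes: Psmb9 and Psmb10, catalytic subunits of the immunoproteasome, by 0.52 ± 0.14 and 0.31 ± 0.09, while the list's median slope was 0.07. Without ZT12 replicate 4 Psmb9 and Psmb10 had slopes of -0.22 and -0.14 and did not pass (edgeR adjusted p = 0.20 and 0.264). Of 10 tested proliferation genes 2 fell, Top2a and Cdk1, which act in DNA replication and mitosis, by 1.09 ± 0.31 and 1.07 ± 0.29 at mean levels under 2 CPM. Neither passed without ZT15 replicate 1 (edgeR adjusted p = 0.0856 and 0.0575). With the macrophage sum as a covariate Psmb9 and Psmb10 had slopes of -0.59 and -0.28, and Top2a and Cdk1 of -0.34 and -0.75, and none of the 4 passed (edgeR adjusted p = 0.358, 0.555, 0.872 and 0.644).

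Beside the macrophage sum, 12 genes were called: Oplah, Agpat3, Mlycd, Gk, Slc25a34, Sod3, Loxl1, Mgrn1, Adtrp, Mgat4b and Ninj1 rising, and Uchl5 falling. They were picked out after their values were seen. Of these 11 were also called without the covariate, the exception being Uchl5. Slc25a34, a mitochondrial carrier, had slopes of 1.57 ± 0.33 without and 2.08 ± 0.38 with the covariate (edgeR adjusted p = 0.00801 and 0.0423). Its log2 difference between the groups was 2.84 at ZT6, 1.91 at ZT12 and -0.24 at ZT15. Sod3, the secreted superoxide dismutase, had 0.44 (adjusted p = 0.0307) and Loxl1, which cross-links elastin, 0.87 (adjusted p = 0.049) beside the macrophage sum.

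The size of the list differences by time followed no single pattern. Fatty acid oxidation had median log2 differences of 0.17 at ZT0 and ZT12, 0.15 at ZT15, 0.14 at ZT21, 0.13 at ZT6, 0.11 at ZT9, 0.04 at ZT18 and -0.04 at ZT3. The Ucp1 ratio was 1.43 at ZT18 and 1.07 at ZT3. The thermogenic list was highest at ZT6 (0.36) and ZT0 (0.22). The macrophage markers were lowest at ZT9 (-1.01), ZT21 (-0.68) and ZT6 (-0.64), and close to level at ZT12 (0.06), where Ucp1 differed most, and at ZT15 (0.02). The mitochondrial ribosome was at 0.12 at both ZT12 and ZT15.

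**Figure D5:**
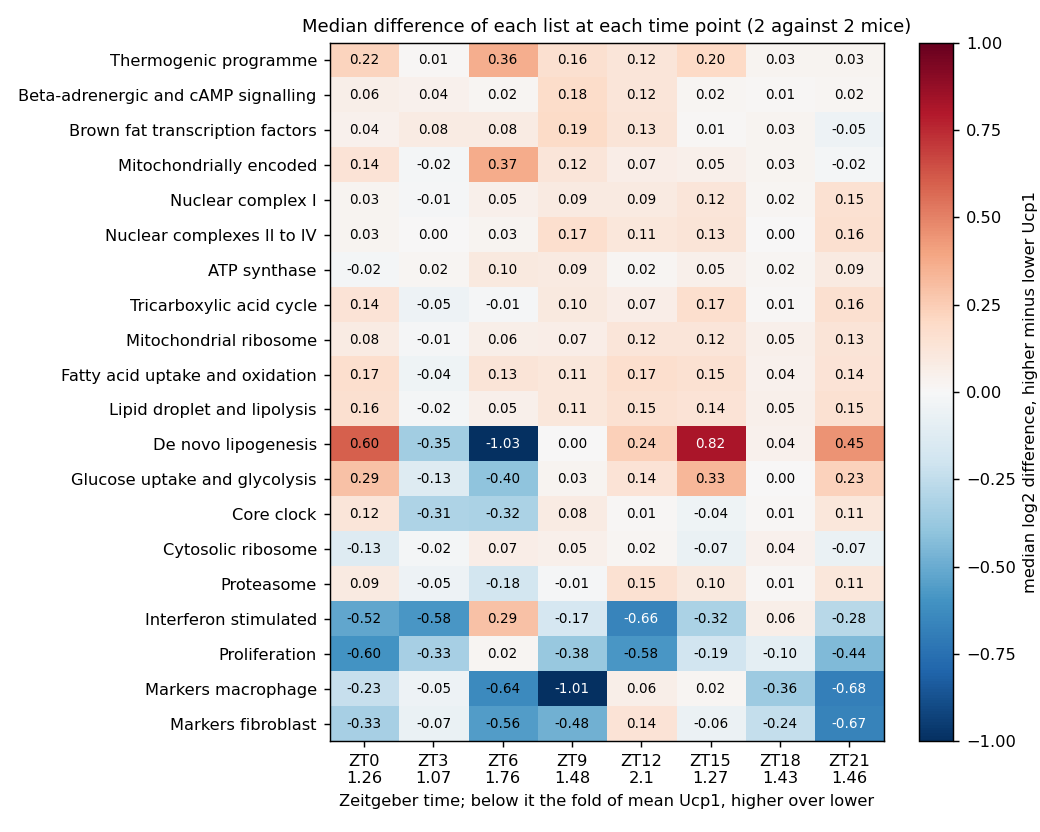
Median log2 difference (higher minus lower Ucp1) of 20 gene lists at each zeitgeber time, 2 against 2 mice, with the fold of mean Ucp1 under each time; red is above 0 and blue below. Oxidative lists are near 0 at both ZT3 and ZT18, de novo lipogenesis changes sign between times, and macrophage markers are lowest at ZT9.

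No gene was called for a difference between the light and the dark phase. By edgeR's test of the interaction, 0 of 15504 genes (0%) passed an adjusted p of 0.05, the lowest adjusted p was 0.364, and 1047 had an unadjusted p under 0.05; DESeq2 called 0. Slc25a20 had log2 differences of 0.19 ± 0.08 in the light and 0.26 ± 0.08 in the dark phase (difference 0.08 ± 0.12), and Gk 0.75 ± 0.28 and 0.45 ± 0.28 (difference -0.30 ± 0.39). Fndc5, named after its values were seen, had 1.36 ± 0.32 in the light and 0.17 ± 0.31 in the dark phase (difference -1.20 ± 0.44, edgeR unadjusted p = 0.0119, adjusted p = 0.72). The intervals of these differences are wide, with 8 against 8 mice in each phase.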

How the data were processed

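Total RNA of interscapular brown fat from 32 mice was sequenced as stranded paired-end libraries. Per the study's methods and the submitters' processing notes, the authors checked the reads with MultiQC, aligned them with GSNAP to mm10 and counted them with HTSeq (0.6.1). The deposited values are raw counts per gene, and whether the counting used strand is not given in the sources used here, so overlapping and antisense genes remain uncertain. Totals lay between 16300770 and 18254659 counts per library, and 0 rows lacked a gene name.

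Mice were ranked within time points on Ucp1 CPM. Genes were kept by filterByExpr with time point as group (15504 without Ucp1), scaled by TMM and tested with edgeR 4.0.16 (glmQLFit, glmQLFTest, R 4.3.3) with time point as a block and Benjamini-Hochberg adjustment. CPM of single genes are TMM-scaled, and those of Ucp1 and of marker sums are per library total. DESeq2 1.42.0 served as an alternative. The edgeR test was run first on simulated data with known changes. Library values were tested by permuting group labels within time points (100000 resamples, two-sided, 15 values in the family, 0.01 CPM added to marker sums before log2). Deviations are log2 CPM minus the mean of the time point. Genes were named if they were members of the lists, were among the 5 highest or lowest correlations with Ucp1 at 10 CPM or more, or are said to be picked out after their values were seen.

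The comparison, the gene lists and the markers were chosen with earlier results of these data known. The study normalised and filtered with edgeR but did not group mice by Ucp1. The graded fit was planned as an alternative and is given at length because the split called no gene. Replicate numbers name different mice, since each mouse was sampled once. Of 112 pairs of libraries with the same number at different times, 49 had a correlation of deviations above 0.1. The median correlation was -0.119 for these pairs and 0.0738 for pairs with different numbers. All 48 pairs of libraries of a time point differed by more than counting noise, with a mean chi-square per gene of at least 7.56. p-values measure the spread between single mice, each sampled once.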

Additional observations from a re-analysis of the deposited data

Results flagged for a closer look

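Within the groups of 4 mice of a time point, 13 values of 128 groups examined stood apart from the other 3 mice by Dixon's criterion, which chance alone meets in about 1 in 20 groups. Of these, 5 belonged to ZT15 replicate 1, a mouse of the lower Ucp1 group and the library whose removal lowered the graded count most. Its Ucp1 was 1235 CPM against 1913 to 2022 in the others, its total 17466245 counts against 17136479 to 17167267, its TMM factor 1.09 against 0.986 to 1, its mitochondrially encoded share 26.7% against 22.8 to 23.3%, and its white adipocyte markers 464 CPM against 213 to 254. The part of these values in the gene results was not tested beyond leaving the library out.

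At ZT3 replicate 2, in the higher group, skeletal muscle markers reached 8385 CPM against 63.4 to 151, and the 10 most abundant genes held 29.1% of counts against 32.4 to 32.8%. At ZT6 replicate 2, in the lower group, muscle markers were 1977 CPM against 54.8 to 65.8, and 21016 genes had a count against 20618 to 20641. Macrophage markers at ZT9 replicate 3, in the lower group, were 367 CPM against 73.6 to 108. Blood markers at ZT12 replicate 2 were 586 CPM against 417 to 432, mural markers at ZT6 replicate 4 were 963 CPM against 809 to 826, and markers of Schwann cells and nerve at ZT0 replicate 4 were 142 CPM against 102 to 106.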

How the results depend on the processing

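The split called 0 genes under 16 of 22 alternatives that kept all mice or left out more than 1. It called 901 with no filter on low counts (885 of them among the 15504 genes tested otherwise), 60 with DESeq2, 6 with ranking on TMM-scaled CPM, 2 with the mitochondrially encoded share as a covariate, 1 within lane 4 and 882 with graded Ucp1. Leaving out single mice gave 0 to 95 calls, with 95 without ZT15 replicate 3 and 1 each without ZT9 replicate 4 and ZT15 replicate 1. The cause was not tested.

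The graded count of 882, most of whose alternatives were chosen after seeing the data, became 1509 beside the mitochondrially encoded share, 545 with a replicate block, 12 beside the macrophage and 25 beside the fibroblast marker sum, 60 without libraries high in muscle markers, 81 without the time points with a gap under 1.1-fold, 0, 1 and 0 within lanes 2, 3 and 4, and 143 at an adjusted p of 0.01. Leaving out single mice gave 241 to 1440. It kept within 1.5 times of 882 with library size alone (746), the muscle sum (817), a mean of at least 1 CPM (924) and DESeq2 (1240). The numbers of the replicates share only a number, since they name different mice. With the replicate block the split called 0 genes and the interaction with phase 0; the interaction called 0 under every alternative run.

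Of the library values, the macrophage, lymphoid and fibroblast differences were -0.52, -0.37 and -0.39 with ranking on TMM-scaled CPM, all past an adjusted p of 0.05, as was the number of genes with a count (-247). Leaving out single mice gave -0.57 to -0.34 for macrophage, -0.38 to -0.26 for lymphoid, -0.41 to -0.24 for fibroblast, 0.06 to 0.09 for brown adipocyte, -1.22 to -0.36 for muscle markers, -0.0301 to -0.0171 for the TMM factor and -0.448 to 0.349 percentage points for the mitochondrially encoded share. That share turned to 0.187 with the TMM ranking and to 1.03 in lane 2, the TMM factor to 0.00133 in lane 2, and the muscle markers to 0.26 between the highest and the lowest mouse. Leaving out single mice gave -201 to -108 for genes with a count, -0.12 to 0.07 for blood markers and -0.277 to 0.158 percentage points for the share of the 10 most abundant genes. That last share was 0.403 with the TMM ranking, 0.256 in lane 3 and 0.269 in lane 4, and lane 4 gave 0.31 for white adipocyte, 0.12 for blood and 0.13 for Schwann and nerve markers.

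Of the 82 named genes 63 had a call in the graded fit. They lost it in 202 of the comparisons that left out 1 mouse and in 390 of those with another alternative, against 1814 and 426 that kept sign and call. Signs turned as follows. In the split, lane 4 gave Gk -0.05, Clstn3 -0.02, Acsl1 -0.03, Slc25a34 -0.13 and Loxl1 -0.10, lane 3 gave Ppargc1a -0.03 and lane 2 gave Creb1 0.01, while Cidea (0) and C1qc (0.06) turned beside the macrophage sum and Col3a1 (0.04) beside the fibroblast sum. In the graded fit, Ppargc1a was at -0.01 in lane 3, Clock at -0.01 and Loxl1 at -0.05 in lane 4, and Ifit2 at 0.02 in lane 2. Csf1r was at 0 beside the macrophage sum and Col3a1 at 0.02 beside the fibroblast sum. C1qc and Csf1r are part of the macrophage sum and Col3a1 of the fibroblast sum, so these fits set each gene beside a sum that contains it.

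The sign also turned for named genes with values near 0 or with wide errors, most of them without a call. Leaving out single mice gave slopes of -0.09 to 0.08 for Adrb3, -0.01 to 0.57 for Fasn, -0.10 to 0.15 for Slc2a4 and -0.01 to 0.17 for Lipe, and split differences of -0.10 to 0.02 for Adrb3, -0.01 to 0.25 for Fasn, -0.01 to 0.08 for Pparg and 0 to 0.09 for Slc2a4. Adrb3 had slopes of 0.01, 0 and 0.01 beside the mitochondrially encoded share, beside the muscle sum and without libraries high in muscle markers, and 0.29 (split 0.23) in lane 3. Beside the macrophage sum, beside the fibroblast sum, without libraries high in muscle markers and in lane 2, Fasn had slopes of -0.54, -0.22, -0.13 and -1.39 (split -0.27, -0.15, -0.13 and -0.31) and Slc2a4 -0.18, -0.16, -0.21 and -0.52 (split -0.04, -0.04, -0.12 and -0.16). Slc2a4 was also at 0, -0.06, -0.01, -0.02, -0.10 and 0 beside the mitochondrially encoded share, with library size alone, beside the muscle sum, with the replicate block, without time points with a gap under 1.1-fold and at a mean of at least 1 CPM. Pparg was at -0.07 in lanes 3 and 4 (split -0.05 and -0.09), with splits of 0 for library size alone and -0.02 beside the fibroblast sum. Cs was at -0.02 in lane 2 (split -0.02) and 0 beside the fibroblast sum, Lipe at -0.48 in lane 2 (split -0.15) and -0.01 without libraries high in muscle markers, and Ppara at 0.34 in lane 4, with a split of 0.16 without libraries high in muscle markers. Adgre1 and Cd68, which belong to the macrophage sum, were at 0.42 and 0.08 (split 0.29 and 0.03) beside it, and Cd68 at 0.01 in lane 4. Lane 4 also gave Uchl5 0.01 (split 0.08) and Fndc5 a split of -0.35. Totals were alike between libraries (16300770 to 18254659 counts), so counting error weighs mainly on genes near or under 1 CPM, such as Top2a and Cdk1.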
